A study of Mus musculus with 13 samples.

Results

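The regions described here are STAT3 binding sites that recurred in wild-type (WT) B cells given IL-21 and had no peak in STAT3 knockout (KO) cells. Peaks of the 12 deposited lists on chromosomes 1 to 19, X and Y that overlapped by 1 bp or more were merged into 11227 regions. A region entered the set when at least 3 of the 4 WT IL-21 lists and none of the 4 KO lists had a peak in it. This left 287 regions, 2.56% of all, of which 125 were found in 4 WT IL-21 lists and 162 in 3. The peaks of those 8 lists chose the set, so its presence in WT IL-21 cells and its absence in KO cells are given as a description and support nothing. The 4 WT IL-4 lists, the positions of the summits, the genes nearby and the promoter sequences were not used to choose it.

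CUT&RUN was used for every library: a nuclease, directed by the anti-STAT3 antibody clone 124H6, cuts out the DNA around its target for sequencing. Naive B cells of mouse spleen were first cultured, in all groups alike, for 96 h under anti-CD40 at 1 µg/mL together with IL-4 at 12.5 ng/mL, then sorted as IgM+ or IgG1+. For each library, 400000 sorted cells were restimulated for 1 h under anti-CD40 at 1 µg/mL, the IL-4 groups with that cytokine at 12.5 ng/mL and the IL-21 groups with theirs at 10 ng/mL. The WT groups (IL-4 or IL-21, IgM or IgG1) had 2 libraries each, and the STAT3 KO groups 1 library each. The labels do not say how STAT3 was deleted, how old the animals were, or whether replicates came from separate animals. The spread between libraries may therefore be technical, and each KO group rests on 1 list. The cell type could not be checked, because a peak list holds no expression. No IL-4 is recorded for the final hour of the IL-21 groups, so added IL-21 and withdrawn IL-4 cannot be told apart. Lists held 623 to 2034 peaks on the chromosomes used. Sequencing depth is unknown, and a missing peak does not show missing binding.

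IL-21 signals through a receptor that shares the common gamma chain and activates the kinases JAK1 and JAK3. These phosphorylate STAT3, which forms dimers, enters the nucleus and binds a short palindrome, TTCNNNGAA, in promoters and enhancers. In B cells this pathway is known for its part in germinal centre and plasma cell differentiation, and STAT3 induces its own feedback inhibitor SOCS3. IL-4 acts mainly through STAT6, which favours TTC and GAA held 1 base further apart.

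The promoters shown here were picked because they hold the palindrome, and do not stand for the whole set. Of the 106 regions that overlap a promoter window, 38 (35.8%) had a match in a window. The following stretches come from RefSeq promoter windows on GRCm38.p6, the assembly behind mm10. They are shown for the strongest regions whose window held the STAT palindrome before that window's own gene start, and for Socs3. Some genes have more than 1 start, and a match can lie after another of them. At Thg1l the best summit lay 135 bp after another start, and the match lay further along the gene. Each is written 5′ to 3′ along the gene it is named for, with matches to TTCNNNGAA in capitals.
Thg1l, chr11:45955200-45955260, minus strand: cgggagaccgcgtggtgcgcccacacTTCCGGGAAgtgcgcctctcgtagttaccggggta
Icam1, chr9:21015872-21015932, plus strand: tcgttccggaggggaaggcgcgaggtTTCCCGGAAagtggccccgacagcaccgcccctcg
Smc6, whose window overlaps that of Gen1 on the other strand, chr12:11265787-11265847, plus strand: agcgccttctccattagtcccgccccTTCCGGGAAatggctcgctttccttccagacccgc
Rabggta, chr14:55721933-55721993, minus strand: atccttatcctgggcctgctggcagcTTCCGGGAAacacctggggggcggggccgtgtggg
Ncf1, chr5:134229679-134229739, minus strand: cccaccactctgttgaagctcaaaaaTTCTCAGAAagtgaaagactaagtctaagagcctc
Akt2, chr7:27591366-27591426, plus strand: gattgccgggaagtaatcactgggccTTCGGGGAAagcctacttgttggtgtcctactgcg
Ubb, chr11:62551693-62551730, plus strand: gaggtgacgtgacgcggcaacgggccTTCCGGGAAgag
Bcl6, chr16:23988936-23988996, minus strand: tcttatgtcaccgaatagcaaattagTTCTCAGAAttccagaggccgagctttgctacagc
Fastk, chr5:24445262-24445322, minus strand: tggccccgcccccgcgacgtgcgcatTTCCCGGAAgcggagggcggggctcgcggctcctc
Socs3, chr11:117969486-117969546, minus strand: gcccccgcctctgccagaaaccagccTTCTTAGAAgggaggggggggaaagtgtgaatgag

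Not every strong promoter region had the palindrome in its window. The region at Jak3, which encodes the kinase bound to that shared receptor chain, had its best summit 14 bp before the gene start. Its window had 0 matches, and the parts of the region outside promoter windows were not searched. The 250 bases before the Jak3 start are shown for contrast with those above.
Jak3, chr8:71676133-71676382, plus strand: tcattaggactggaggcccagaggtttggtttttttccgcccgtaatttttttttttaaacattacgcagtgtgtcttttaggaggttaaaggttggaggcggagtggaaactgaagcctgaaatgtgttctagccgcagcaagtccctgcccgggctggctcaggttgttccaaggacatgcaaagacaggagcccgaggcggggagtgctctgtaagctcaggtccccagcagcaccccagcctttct

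STAT palindromes were counted in all promoter windows, each running from 250 bases before to 50 after a gene start. Of the 287 regions, 106 overlapped at least 1 of the 32851 windows, and 151 windows were covered in all. TTCNNNGAA stood in 44 of the 151 windows (29.1%, exact 95% Clopper-Pearson interval 22.0 to 37.1), and 8.3% of all windows held it. Its strict form TTCCNGGAA stood in 25 (16.6%), against 1.15% of all windows. The form with 4 spacer bases (TTC, any 4 bases, GAA) stood in 11 (7.28%), against 6.95% of all. The AP-1 site TGANTCA stood in 4 (2.65%), against 7.81% of all. Both strands were searched, and every match to the strict form is also a match to TTCNNNGAA. A match is a string of letters, not a shown binding site. Windows that share a gene or face each other overlap in sequence, so they are not independent.

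Base composition differed between the covered windows and the rest. The median GC content was 62.3% in windows under the set and 52.7% in all windows. Among the 7822 windows at or above that median, TTCNNNGAA stood in 3.68%, its strict form in 0.741% and the form with 4 spacer bases in 2.84%. Under the set these shares were 29.1%, 16.6% and 7.28%. TGANTCA stood in 3.08% of the GC-rich windows, close to its 2.65% under the set. Whether base composition accounts for any of these shares was not tested. Windows under regions found in 1 WT IL-21 list alone had a median GC content of 63.3%, and 7.29% of those 535 windows held TTCNNNGAA (interval 5.23 to 9.83).

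The palindrome's share differed between sets of regions with different numbers of WT IL-21 lists. It was 17.2% (interval 10.9 to 25.4) of the 116 windows under regions found in exactly 2 WT IL-21 lists and no KO list. It was 18.9% (10.7 to 29.7) of 74 windows under regions of 3 lists, and 39.0% (28.0 to 50.8) of 77 windows under regions of 4 lists. Windows under the 76 regions that were found in at least 3 WT IL-21 lists but also in a KO list gave 8 of 42 (19.05%, 8.60 to 34.1). The interval for 4 lists does not overlap that for 1 or for 2 lists, and overlaps the other intervals. Regions found in 4 lists were also wider (median 828 bp) than those found in 3 (640 bp) or 2 (477 bp), and a wider region can cover more windows. The 77 windows lay under 52 regions of 4 lists, and the 74 windows under 54 regions of 3. Whether width bears on the share was not tested.

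**Figure D1:**
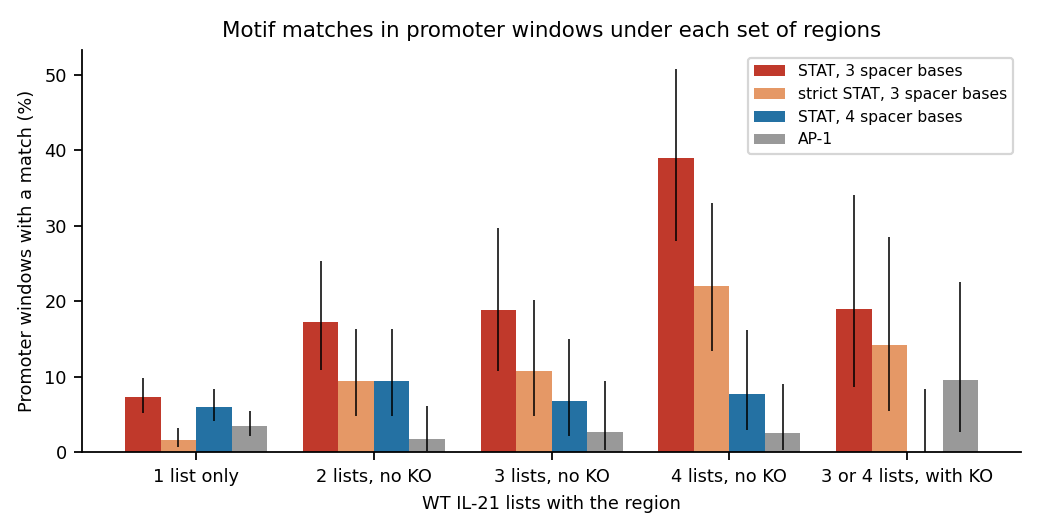
Share of promoter windows (%) that hold each motif, for windows under regions grouped by the number of WT IL-21 lists with a peak; bars are shares and lines exact 95% intervals for counting error. TTCNNNGAA stands in 39.0% of windows under regions of 4 lists without a KO peak and in 7.29% under regions of 1 list, while the form with 4 spacer bases lies between 5.98% and 9.48% in the 4 groups without a KO peak.

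The same count was made for regions whose best summit itself lay inside a window, a measure that does not rest on the region's width. Of 41 such regions in the set, 22 (53.7%) had a TTCNNNGAA in that window. By number of lists these were 16 of 21 (76.2%) for 4 lists and 6 of 20 (30.0%) for 3, against 9 of 43 (20.9%) for exactly 2 lists and 18 of 258 (6.98%) for 1 WT IL-21 list alone. Regions with at least 3 WT IL-21 lists and a KO peak gave 5 of 17 (29.4%), close to the share for 3 lists. Of the 41 regions, 3 (7.32%) held the form with 4 spacer bases and 2 (4.88%) held TGANTCA.

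Where a promoter window under the set held a match, most best summits lay beside it and not on it. Only the windows were searched, so a match nearer the summit but outside them would be missed. Over the windows under the set there were 43 distinct matches, in 38 regions, and 24 of the 43 had the strict form. The best summit, that of the WT IL-21 peak with the highest fold, lay a median of 138 bp from the centre of the match. It was within 25 bp for 0 of the 43 matches, within 50 bp for 3 and between 50 and 200 bp for 32. The summits of the separate WT IL-21 lists gave the same picture, with 4 of 158 within 25 bp and a median of 139.5 bp. At Thg1l the summits lay 138 and 139 bp from the match in the IgM libraries and 98 and 95 bp in the IgG1 libraries. At Icam1 these distances were 171 and 139 bp in IgM and 168 and 140 bp in IgG1, and at Fastk 131 and 85 bp in IgM and 87 and 79 bp in IgG1. At the Cish promoter, where a pair of matches (TTCCTGGAA and TTCTTGGAA) lies just after the window's gene start, the summits were closer. In the 3 libraries with a peak they were 66, 28 and 14 bp from the centre of the first match. From the second they were 55, 17 and 3 bp, the last of these within the match.

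For a like comparison, regions with both the summit and a match in 1 window were set beside each other. The nearest match was a median of 91 bp from the summit in the 22 regions of the set, none within 25 bp, and 98.5 bp in the 36 regions found in 1 of the 12 lists, 8 of them within 25 bp. In 17 of the 22 regions the match lay further along the gene than the summit, and in 5 before it. No test was made of these distances.

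**Figure D2:**
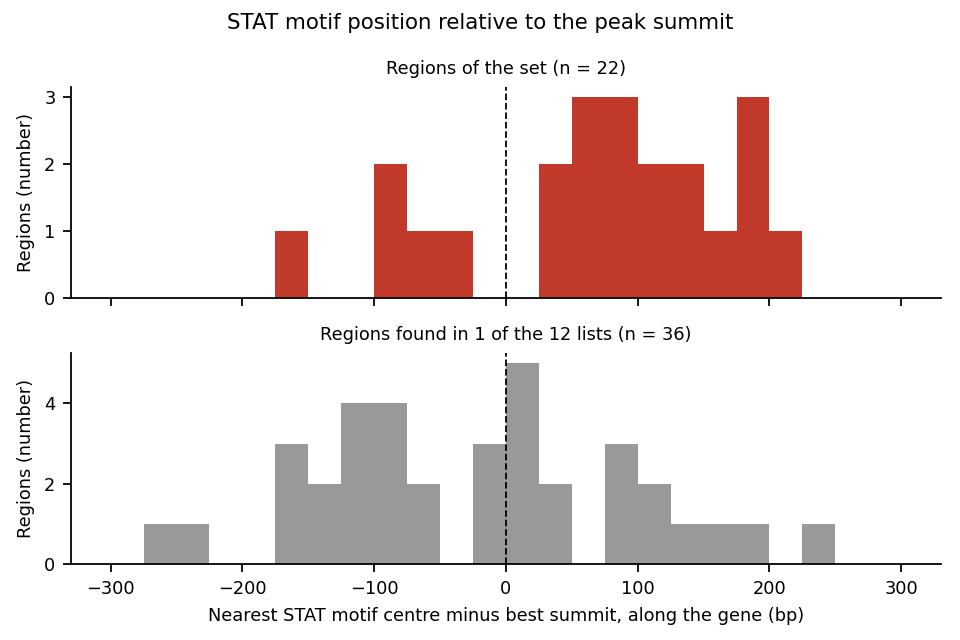
Position of the nearest TTCNNNGAA centre relative to the best summit, in bp along the direction of the gene, for regions with both in 1 promoter window; bars count regions in bins of 25 bp. The 22 regions of the set leave the bins on both sides of 0 empty, and 8 of the 36 regions found in 1 list fall there.

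Within WT IL-21 cells the lists contributed unequally. The first IgM library had a peak in all 287 regions, the second IgM library in 247 (86.1%), the first IgG1 library in 170 (59.2%) and the second IgG1 library in 282 (98.3%). Of the 162 regions found in 3 lists, 117 lacked the first IgG1 library, 40 the second IgM library and 5 the second IgG1 library. These lists held 2034, 1171, 865 and 1485 peaks in the same order, so the shortest list was the one that most often lacked a region. Asking for 3 lists after leaving out a WT IL-21 library gave 124 regions without the first IgM library, 165 without the second, 129 without the second IgG1 library and 242 without the first, since all 3 remaining lists were then required.

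The WT IL-4 lists show how many of these regions had a peak without IL-21. A peak in at least 1 WT IL-4 list was found in 48 of the 287 regions (16.7%, exact 95% interval 12.6 to 21.6), while 30.4% of all regions had one. Of those 3416 regions, 3081 were found in that 1 list alone. Of the 48, 30 had a peak in 1 WT IL-4 list, 8 in 2, 8 in 3 and 2 in all 4. The other 239 regions had none. By library, 35 and 18 regions were found in the IgM IL-4 lists and 18 and 7 in the IgG1 IL-4 lists, and 15 regions had an IL-4 peak in both isotypes. Without the first IgM IL-4 library the count of 48 fell to 30.

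**Figure D3:**
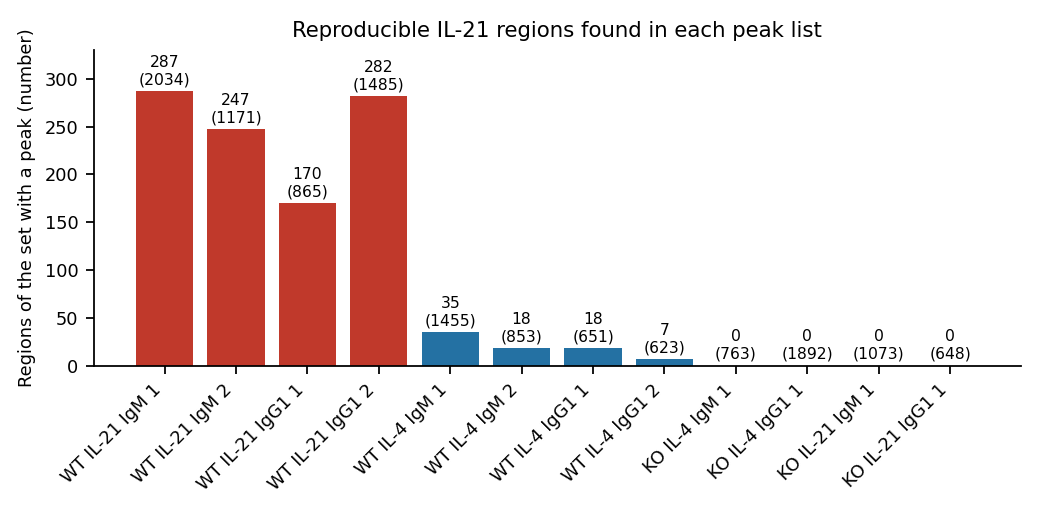
Number of the 287 regions with a peak in each of the 12 lists (bars, with the count above the list's total of peaks in brackets). WT IL-21 lists hold 170 to 287, WT IL-4 lists 7 to 35, and KO lists 0 because the rule asked for it.

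The share with an IL-4 peak was set out by the number of WT IL-21 lists, without a test. An IL-4 peak was present in 33 of 125 regions of 4 lists (26.4%, interval 18.9 to 35.0) and 15 of 162 regions of 3 lists (9.26%, 5.28 to 14.8). Among regions without a KO peak, the share was 10.3% for exactly 2 WT IL-21 lists and 2.08% for exactly 1. Of the 76 regions with at least 3 WT IL-21 lists and a KO peak, 52 (68.4%) had an IL-4 peak.

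Few peaks of a WT IL-4 list lay in the set, and their folds ran from below the list's median to its 10 highest. Between 1.28% and 2.76% of the peaks of each WT IL-4 list fell in these regions. Of the 10 peaks with the highest fold, 5 and 2 did so in the IgM lists and 7 and 2 in the IgG1 lists. The median fold of the peaks in the set was 4.90 and 4.53 in the IgM lists and 6.49 and 5.03 in the IgG1 lists, against 4.29, 4.22, 4.41 and 4.78 over all peaks of these lists. Fold enrichment is the authors' ratio of the signal at a summit to a background, and the control behind that background is not given. In all 4 WT IL-21 lists the 10 peaks of highest fold lay in the set, and of the first 100, 89 and 87 in IgM and 72 and 86 in IgG1, which follows in part from the rule.

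The 2 regions with a peak in all 4 WT IL-4 lists were also the strongest with IL-21. At Thg1l (chromosome 11, 45954952 to 45955902), which encodes the enzyme that adds a guanylate to histidine tRNA, the fold with IL-21 was 117 and 62.4 in IgM and 60.1 and 63.3 in IgG1 cells. With IL-4 it was 13.5 and 10.8 in IgM and 19.2 and 8.56 in IgG1 cells. The region at Lsm4 (chromosome 8, 70673105 to 70674353), an RNA-binding component of the splicing machinery, had IL-21 folds of 103 and 66.7 in IgM and 59.6 and 56.7 in IgG1 cells. Its IL-4 folds were 16.0 and 11.0 in IgM and 18.01 and 10.1 in IgG1 cells. At both genes every IL-21 library lay above every IL-4 library.

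Over the 48 regions with peaks in both treatments, the mean IL-21 fold was above the mean IL-4 fold in 44, and in 34 every IL-21 fold lay above every IL-4 fold. The ratio of the means had a median of 2.26 and ran from 0.548 to 9.18, the highest at Slc39a1, a zinc transporter. Each fold was computed for its own list. The rule asked for a peak in at least 3 WT IL-21 lists and set no condition on the WT IL-4 lists. Regions thus entered through their IL-21 peaks, and these counts and ratios are a description. Of the 4 regions that went the other way, that at Keap1, the sensor that holds NRF2 in check, had a mean fold of 4.29 with IL-21 and 4.66 in 1 IL-4 list. The others lay at LOC114841036 (4.52 and 8.23), Zfp958 (3.65 and 4.38) and Opn3 (3.56 and 4.22); these 4 were picked after their values were seen. The best IL-4 summit lay a median of 70 bp from the best IL-21 summit, and within 100 bp in 27 of the 48. For comparison, 52 regions had at least 3 WT IL-21 lists, a KO peak and an IL-4 peak. Their ratio of the means had a median of 1.03. The IL-21 mean was the higher in 27 of these 52, and every IL-21 fold lay above every IL-4 fold in 11.

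The isotypes are compared as a description, since the WT IL-21 lists of both chose the set. An IgM library held a mean of 27.5 more of the regions than an IgG1 library, with treatments weighted equally. The isotypes overlapped with IL-21 and met at 18 regions with IL-4. They stood at 247 and 287 regions in IgM against 170 and 282 in IgG1 libraries with IL-21. Among the 125 regions of 4 lists, both IgM folds were above both IgG1 folds in 40 and the reverse held in 0. The first IgM library alone had the highest fold in 106 of the 125, and the first IgG1 library the lowest in 79. Median folds over the 125 regions were 15.0 and 8.30 in IgM and 6.92 and 9.95 in IgG1 cells, so the second IgM library lay between the IgG1 libraries.

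**Figure D4:**
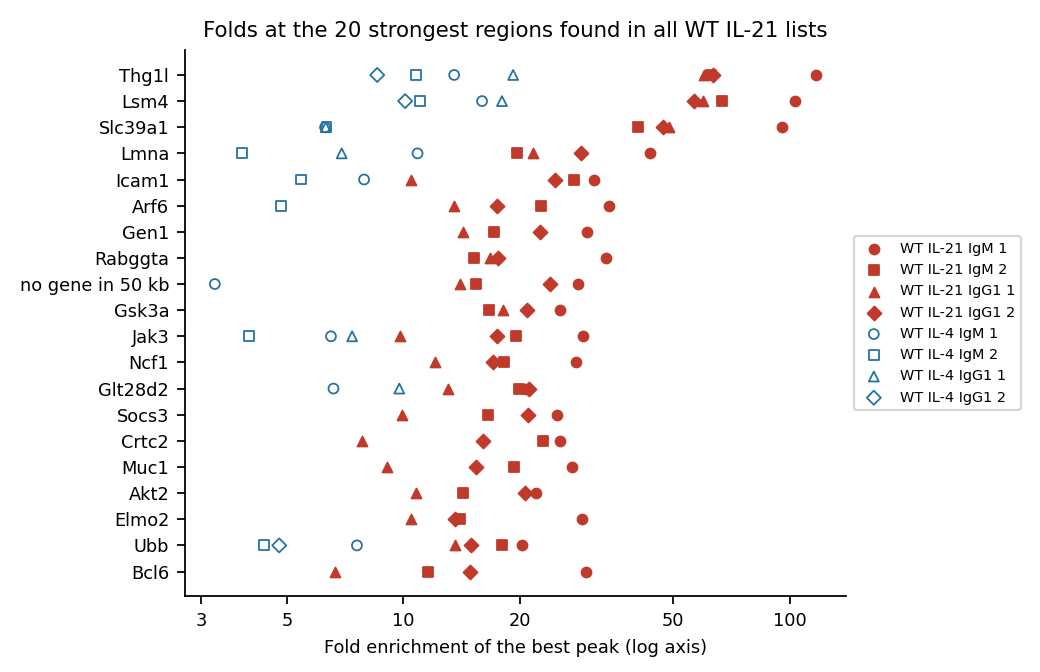
Fold enrichment of the best peak (log axis) in each WT IL-21 (filled) and WT IL-4 (open) list at the 20 regions of 4 WT IL-21 lists with the highest mean fold; lists without a peak have no symbol. The first IgM IL-21 library (circles) is highest in 19 of the 20, and every IL-4 fold lies below every IL-21 fold of the same region. The 20 were chosen by their IL-21 folds, so the order of the treatments is a description.

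The remaining strong regions span several kinds of gene. Those with IL-4 peaks included Lmna, which encodes nuclear lamins, Icam1, the adhesion molecule that binds LFA-1, the small GTPase gene Arf6 and the ubiquitin gene Ubb. At Icam1 the IL-21 folds were 31.1 and 27.7 in IgM and 10.5 and 24.6 in IgG1 cells, and the IL-4 folds 7.92 and 5.43 in IgM cells with no IL-4 peak in IgG1 cells. Without any IL-4 peak were the regions at Rabggta, which serves in attaching lipid anchors to Rab GTPases, Gsk3a, Ncf1, which takes part in the NADPH oxidase, Muc1, Elmo2, Akt2 and Crtc2, a coactivator of CREB. At Gsk3a, a kinase that AKT phosphorylates and inhibits, the IL-21 folds were 25.5 and 16.7 in IgM and 18.1 and 20.9 in IgG1 cells. Akt2, a kinase of that pathway, had 22.0 and 14.3 in IgM and 10.8 and 20.7 in IgG1 cells. Mean folds over the whole set had a median of 7.20 and ran from 2.91 to 75.7, and the SD of the 4 folds had a median of 35.6% of their mean.

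The spread of WT IL-21 summits in the set was near that over all regions. The distance between the outermost summits of a region had a median of 122 bp, was at most 100 bp in 119 regions (41.5%) and at most 500 bp in 274 (95.5%). The median was 145 bp over 4 summits and 113 bp over 3. With 3 of the 4 summits at a time, the regions of 4 lists gave medians of 90 bp, leaving out the first IgG1 library, to 117 bp, leaving out the first IgM library. Merged regions had a median width of 721 bp (229 to 2942). In 265 of the 287 all peaks shared at least 1 bp, and in 15 a list had more than 1 peak, so few were chains of separate peaks.

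Among the regions of 4 lists, the tightest summits were at Crtc2 (6 bp), Jak3 (8 bp), Limd1 (10 bp), Sppl3 (18 bp) and Il10, which encodes an immunoregulatory cytokine (20 bp). The widest summit spreads were at Bcl3, an atypical IκB protein (1102 bp), Agfg1 (930 bp), Cradd, an adaptor of caspase signalling (869 bp), Ptpn1 (658 bp) and Taf4b (658 bp). Between pairs of WT IL-21 libraries the median distance was 50 bp within IgM, 73 bp within IgG1 and 57.5 to 69 bp across isotypes, so pairs across isotypes lay between the pairs within an isotype. In the regions with at least 3 WT IL-21 lists and a KO peak the median spread was 132 bp. That value joins unlike groups, with a median of 212 bp over the 41 regions with 1 KO list and 13 bp over the 35 with 2 or more.

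**Figure D5:**
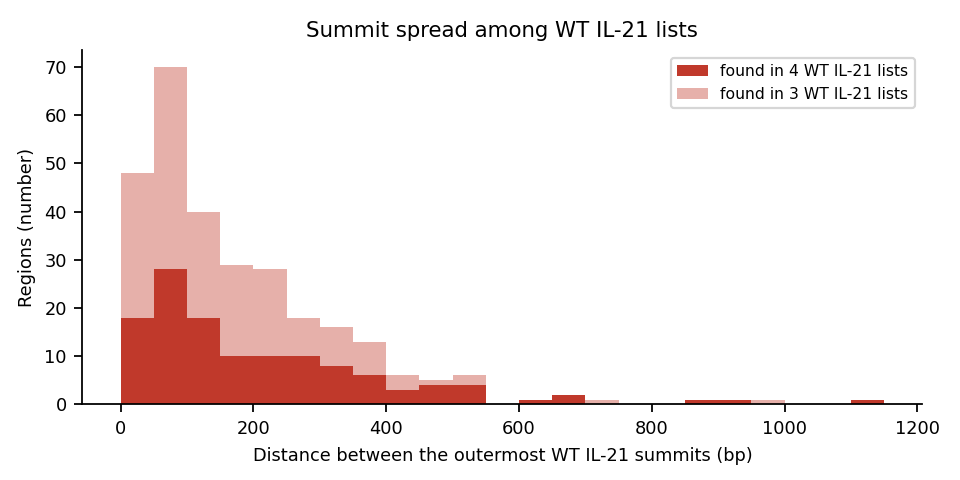
Distance in bp between the outermost WT IL-21 summits of each region, in bins of 50 bp, stacked for the 125 regions of 4 lists (dark) and the 162 of 3 lists (light). Of the 287 regions, 274 lie at or below 500 bp.

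The regions lay near gene ends in 123 of 287 cases (42.9%, exact 95% interval 37.1 to 48.8), meaning that the best summit was at most 1000 bp from where a protein-coding gene begins or ends. Of all regions 17% lay there, of regions found in 1 list 13.8%, of regions of exactly 2 WT IL-21 lists without KO 37.7%, and of those with at least 3 lists and a KO peak 38.2%. The last 2 shares lie within the interval of the set. A further 76 regions (26.5%) lay inside a gene away from its ends, 71 (24.7%) outside genes up to 50000 bp away, and 17 (5.92%) further out. Within 1000 bp of a start in the promoter table were 116 regions, 53 with the best summit before the start and 63 at or after it, with a median position 47 bp after it. Windows of genes on both strands were covered by 19 regions, among them the shared promoter of Gen1, a Holliday junction resolvase, and Smc6, a subunit of a chromosome maintenance complex.

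Regions with an IL-4 peak lay near gene ends in 30 of 48 cases (62.5%, interval 47.4 to 76.0), and regions without one in 93 of 239 (38.9%, 32.7 to 45.4). These intervals do not overlap, and no test was made. The palindrome stood in a promoter window of 9 of 26 promoter regions with an IL-4 peak (34.6%) and of 29 of 80 without (36.3%).

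Apart from the 17 regions further out, the set was named by 246 protein-coding genes within 50000 bp of the best summit, 1.12% of all 21887. Regions of any library named 28.5% of genes. The lists of genes used below were chosen with results of these data known, so their counts describe the lists and are no evidence of enrichment. Together they held 211 genes, of which 114 had a region of any library and 28 (13.3%) a region of the set.

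Genes of JAK-STAT signalling and its feedback gave 8 of 37 with 16 regions. The kinase gene Jak3 (chromosome 8, 71676008 to 71676730) had folds with IL-21 of 29.1 and 19.5 in IgM and 9.78 and 17.5 in IgG1 cells, and with IL-4 of 6.502 and 3.99 in IgM and 7.38 in 1 IgG1 library. The 4 IL-21 libraries all lay above the IL-4 libraries. Stat3 itself had a region (chromosome 11, 100939445 to 100940152) with its summit 79 bp outside the gene, at 23.5 and 11.4 in IgM and 8.55 and 12.6 in IgG1 cells with IL-21, and at 3.57 and 4.70 in IgM cells with IL-4. Stat5b, which encodes another STAT protein, had a region in 3 WT IL-21 lists and no IL-4 list, at a mean fold of 6.99.

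The inhibitors of the pathway held most of its regions. Socs3 had 6, none with an IL-4 peak, of which 3 were found in 4 WT IL-21 lists and 3 in every list but the first IgG1 library. Its strongest region, chromosome 11, 117951914 to 117953025, lay 13532 bp outside the gene, with folds of 25.005 and 16.6 in IgM and 9.92 and 21.02 in IgG1 cells. The promoter region (117968748 to 117969687), which holds the match printed above, had folds of 13.8 and 8.95 in IgM and 7.74 in the second IgG1 library. Its 3 summits lay within 15 bp of each other and 88 to 103 bp from the match.

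Cish, another SOCS family inhibitor, had a region at its promoter (15.5 and 8.32 in IgM, 7.43 in 1 IgG1 library) and another 10444 bp outside the gene (13.1 and 7.27 in IgM, 9.09 in 1 IgG1 library). Socs1 had a region within the gene (mean fold 4.67) and another 11398 bp away (7.03), each found in 3 lists. Ptpn1, a phosphatase that acts on JAK kinases, had 2 regions of 4 lists at mean folds of 6.46 and 9.79. None of these 6 regions had an IL-4 peak.

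The Socs3 regions were part of the densest cluster. Chaining regions with summits up to 50000 bp apart gave 30 clusters that held 71 of the 287 regions. The largest had 9 regions over 97981 bp of chromosome 11 (117871707 to 117969687), the 6 named by Socs3 and 3 named by Tha1, a threonine aldolase. Tha1 regions had mean folds of 8.84, 10.7 and 5.68 and no IL-4 peak. Cradd and Ppp1r16b, a regulatory subunit of protein phosphatase 1, were the other genes with 3 regions. Chromosome 11 carried 34 regions of the set (11.8%), against 6.78% of all regions.

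The list for the germinal centre and B cell identity gave 4 of 33 genes: Bcl6, the repressor that directs the germinal centre programme, Irf8, Ccr7 and Tcf4, none with an IL-4 peak. The region at the Bcl6 promoter (chromosome 16, 23988392 to 23989110) had folds of 29.7 and 11.6 in IgM and 6.67 and 14.9 in IgG1 cells. Its summits lay 175 to 257 bp from the match printed above. Ccr7, the receptor for CCL19 and CCL21, had a region 11813 bp outside the gene at 18.4 and 7.47 in IgM and 8.90 and 12.6 in IgG1 cells. Regions at Irf8, a B cell transcription factor, and at the E protein gene Tcf4 were each found in 3 lists, at mean folds of 4.76 and 7.41.

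Plasma cell genes gave 5 of 23: the AP-1 factors Batf, Junb and Jund, Il10 and Id2, an inhibitor of E proteins. The region inside Il10 (chromosome 1, 131022698 to 131023418) had folds of 20.5 and 9.68 in IgM and 11.8 and 13.9 in IgG1 cells and no IL-4 peak. Batf had a region inside the gene (chromosome 12, 85704766 to 85706357) with IL-21 folds of 19.8 and 17.2 in IgM and 8.09 and 14.2 in IgG1 cells, and IL-4 folds of 4.61 and 3.60 in IgM and 4.00 in 1 IgG1 library. All IL-21 folds there lay above the IL-4 folds. At the Jund gene the ranges overlapped, with IL-21 folds of 5.15 to 8.83 and IL-4 folds of 3.43 to 6.41. The plasma cell regulators Prdm1, Irf4 and Xbp1 named no region of the set.

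Survival, apoptosis and growth arrest genes gave 6 of 42, namely Mcl1, Bcl3, Trp53inp1, Gadd45b, Gadd45g and Egr1. Gadd45b, a stress-induced growth arrest gene, had IL-21 folds of 23.0 and 12.3 in IgM and 8.33 and 10.9 in IgG1 cells, and IL-4 folds of 5.04 and 7.13 in 1 library of each isotype. Mcl1, an anti-apoptotic relative of BCL2, had a region in 3 lists at a mean fold of 6.09 and in 1 IL-4 list at 3.46. NF-kB and CD40 genes gave 2 of 21, Icam1 and Rela, an NF-kB subunit (mean fold 6.25 in 3 lists). PI3K, Akt and Gsk3 genes gave 3 of 17: Akt2, Gsk3a and Pik3cd, a catalytic subunit of PI3K (mean fold 9.12 in 3 lists). Of the 14 IL-4 and STAT6 responsive genes, Cish, Socs1 and Batf named regions, and all 3 stand on other lists. Markers of myeloid cells (0 of 10), of T and NK cells (0 of 12) and housekeeping genes (0 of 10) named none. As the set names 1.12% of all genes, a count of 0 in lists this short says little. Regions of any library were named by 4, 1 and 1 genes of these lists.

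Regions far from coding genes could be strong. Of the 17 with no protein-coding gene within 50000 bp, 8 lay inside a non-coding gene. A region on chromosome 11 (43358302 to 43359706), 61474 bp from Pttg1 and 15627 bp from the microRNA gene Mir146, had IL-21 folds of 28.4 and 15.5 in IgM and 14.1 and 24.0 in IgG1 cells, and an IL-4 fold of 3.26 in 1 IgM library. In the long non-coding gene Pvt1, 179287 and 191103 bp from Myc, 2 regions of 4 lists had mean folds of 12.5 and 8.38. The other 3 of the strongest 5 lay 69102 bp from Rapgef5 (mean fold 12.4), 342683 bp from Id2 (10.8) and 183492 bp from Klf7 (9.53). Each of these 3 was found in 3 lists.

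One region of the set lay near the gene of a microRNA that is a known STAT3 target. It stood 2864 bp from the Mir21a hairpin, inside Vmp1 (chromosome 11, 86586585 to 86587364), with a mean fold of 6.15 in 3 lists and no IL-4 peak, and was picked after its value was seen. The mature strand from RefSeq, with its seed (bases 2 to 8) in capitals, is shown because the seed sets which transcripts it pairs with.
mmu-miR-21a-5p: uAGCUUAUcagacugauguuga

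Folds just inside and just outside the rule are given as a description. The 162 regions of exactly 3 lists had a median mean fold of 6.33 (2.91 to 14.0), and the 281 of exactly 2 lists without KO 5.67 (3.07 to 12.3). The strongest of the latter lay at Diaph1, an actin-nucleating formin (12.3), Mdm2, the ubiquitin ligase of p53 (11.8), Dclre1c, the Artemis nuclease (10.4), Poli (10.3) and Rnf44 (9.91). On the KO side, at least 3 WT IL-21 lists held 363 regions (3.23% of all), of which 76 had a KO peak, 41 in 1 KO list and 24 in all 4. The 41 had a median mean fold of 5.95, and the 35 with 2 or more KO lists 1.89. The strongest of the 41 lay at Mllt6 (15.9), Casp4, an inflammatory caspase (14.6), Cic (10.6), 87803 bp from the cyclin gene Ccnd2 (9.60) and at the histone gene H4c14 (9.58). Their KO folds were 4.89, 3.97, 3.59, 5.87 and 4.83, below the IL-21 mean in each case. The 5.87 came from the KO IL-21 IgM list and the others from KO IL-4 lists, where the cytokine differed as well as the genotype. These regions were also picked for their high IL-21 means, so the direction is a description.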

How the data were processed

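The data were 12 peak lists, 1 per antibody library, without the input sample (not analysed here). MACS2 2.2.7.1 and mm10, as well as Bowtie2 2.4.1, Trimmomatic 0.39 and deepTools 3.5.1, stand in the submitters' processing notes without roles. Which control served for peak calling is not given in the sources used here, nor is any use of the yeast spike-in. Each deposited list gives a fold (a ratio of summit signal to local background), a −log10 p (lowest 5.00), a −log10 q and a score, which is 10 times that −log10 p without its decimals. Of the 13908 deposited peaks, 395 on other sequences were left out. From these files, regions, summits, nearest genes, promoter matches and counts were computed in Python 3.11.15 with pandas 2.3.3 and scipy 1.17.1, after merging had been tested on simulated data. Gene spans (21887 protein-coding genes) and promoter windows (32851, chromosome 18 not used here) came from RefSeq on GRCm38.p6, which shares coordinates with mm10. The 6 regions of the set on chromosome 18 therefore have no window. Intervals are Clopper-Pearson (exact) and take in counting error alone. Named regions were the 20 of highest mean fold in 4 lists, those on the gene lists, the 5 tightest and 5 widest summit spreads among regions of 4 lists, genes with 3 or more regions, those in all IL-4 lists, the 5 strongest far from genes, up to 10 with a promoter match, and the 5 strongest just outside each side of the rule. The set, the gene lists and the tests were chosen with earlier results of these data known. Alternatives were a −log10 q of at least 5, overlap of summits widened by 100 bp, lists of equal length (623 peaks), all 4 WT IL-21 lists, and leaving out each library. A planned permutation test between isotypes is not reported, since it counts lists that the rule used. Values of 1 gene are not reported here.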

Additional observations from a re-analysis of the deposited data

Results flagged for a closer look

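Among 30 sets of 4 libraries looked at, 5 had 1 library standing far off its 3 companions. The sets were 5 measures in the WT IL-21 and WT IL-4 libraries, and the folds at the 20 strongest regions. For independent sets, chance alone picks out about 1 in 20. These sets share libraries and values, so they are not independent, and the count of 5 cannot be set against that rate. The highest fold of any region in a WT IL-21 library, 117 in the first IgM library, stood apart from 60.1 to 66.7 in the others. The same value at Thg1l stood apart from 60.1 to 63.3. At Slc39a1 the first IgM library had 95.4, against 40.5 to 48.6. At Rabggta it had 33.4, against 15.2 to 17.6. At Glt28d2 the first IgG1 library had the lowest fold, 13.0, against 19.9 to 21.2.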

How the results depend on the processing

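The choice of lists moved the size of the set more than the other choices. Requiring all 4 WT IL-21 lists gave 125 regions with a median width of 828 bp and the palindrome in 39.0% of covered windows. Leaving out 1 library gave 124 to 306 regions, 30 to 56 of them with an IL-4 peak, a median summit spread of 97 to 127 bp, a median width of 718 to 809 bp and 42.4% to 46.8% near a gene end. With a −log10 q of at least 5 in every list, 21 regions had an IL-4 peak. With that threshold in the WT IL-21 lists alone, the median summit spread was 104 bp and the median width 751 bp. With 623 peaks from every list the median width was 768 bp. Joining peaks by summits gave a median spread of 93.5 bp. Within 500 bp of a gene end lay 36.2% of the set. In windows that hold the best summit, an alternative chosen after seeing the data, the palindrome's share was 52.2%. The IgM minus IgG1 difference stayed above 0 under every alternative run, at 4.00 to 32.0 regions when a library was left out. Where a WT IL-21 library was left out or all 4 were required, every WT IL-21 list in use had to hold each region. The difference then came from the WT IL-4 lists alone, at 4.00 to 6.25 regions, and says nothing of the IL-21 cells. Replicate numbers give no stated pairing, and a replicate block within treatments left the IgM minus IgG1 difference at 27.5. No p is given with or without the block, because the WT IL-21 lists counted in it chose the set. Depth is not known from the lists, so a region missing from a list may be present below its threshold.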
